A study of Sus scrofa with 6 samples.

Results

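GABA-A receptors are the chloride channels through which GABA, the main inhibitory transmitter of the brain, acts within milliseconds. Each receptor is a ring of subunits, commonly alpha, beta and gamma or delta, and the alpha and gamma subunits present set its GABA affinity, its benzodiazepine response and whether it sits at or outside the synapse. The genes considered were GABRA2, GABRA3, GABRA4, GABRA5, GABRB1, GABRB2 and GABRG1, a set of 7 subunit genes taken by symbol. Of these, 5 could be matched to a row among the 18225 Ensembl genes listed (GABRA2, GABRA3, GABRA4, GABRA5 and GABRG1), and all 5 had values high enough to be tested. The beta subunit genes GABRB1 and GABRB2 were not analysed here.

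Poly(A)-selected RNA was sequenced from 3 Rongchang pigs, a domesticated Chinese breed, and 3 wild boars, with 1 brain library per animal. All animals were 210 days old. No brain region, sex or treatment is given in the labels. Values are FPKM (sequenced fragments per kilobase of a gene's transcript, relative to all fragments mapped in the library), which take transcript length into account, so that levels of different genes can be set side by side within a library.

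The libraries held 16510 to 17090 genes above 0, and their depth is unknown, since FPKM carry no read counts. Neuronal messages were plentiful: the 9 of 14 pan-neuronal markers with a row summed to 2610, 3420 and 3730 FPKM in Rongchang 1, 2 and 3, and to 2440, 3340 and 3160 FPKM in wild boar 1, 2 and 3. Of the cerebellar markers, GABRA6, CBLN3 and FAT2 stayed under 1 FPKM in every library. So did TPH2 and SLC6A4, the only 2 of 6 brainstem markers with a row. The other 3 cerebellar markers with a row were above 1 FPKM throughout, ZIC2 at 4.53 to 7.05, ZIC1 at 2.65 to 4.42 and CALB1 at 1.88 to 3.08 FPKM over the 6 libraries. Summed hippocampal markers (4 of 5 with a row) did not overlap between the breeds, at 50.2 to 54.1 FPKM in Rongchang and 36.4 to 43.0 FPKM in wild boar. FAM163B made up 85.8% of that sum, and PROX1 by itself overlapped. Summed endothelial and mural markers (4 of 7 with a row) did not overlap either, at 21.4 to 27.3 FPKM in Rongchang and 32.0 to 34.3 FPKM in wild boar. Of these 4 markers only PDGFRB separated the breeds by itself. The sums of the other cell type and region lists overlapped. Of all genes tested, 12.5% did not overlap by themselves. No marker with a row in these hippocampal and vascular lists was at 0 in any library, and their part in the subunit values was not tested. In brain tissue of mixed cells, a change in the number of cells of a type cannot be told apart from a change in RNA per cell.

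GABRA3 (ENSSSCG00000025708) was the most abundant of the 5 genes. It encodes the alpha3 subunit, which in rodents is found in deep cortical layers, in the thalamic reticular nucleus and in monoamine neurons. Its level was 25.4, 45.8 and 39.6 FPKM in Rongchang 1, 2 and 3, against 22.7, 39.1 and 24.8 FPKM in wild boar 1, 2 and 3. The libraries numbered 1 were the lowest of their breed and those numbered 2 the highest, and the breeds overlapped. The mean was 36.9 ± 10.5 FPKM in Rongchang and 28.9 ± 8.94 FPKM in wild boar (SD, n = 3 each).

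GABRA5 (ENSSSCG00000004827) came next. Its product, alpha5, lies mostly outside synapses, carries part of the tonic inhibition of hippocampal pyramidal neurons in rodents, and is studied for its role in learning. Levels were 20.3, 35.1 and 35.2 FPKM in Rongchang 1, 2 and 3, against 18.5, 27.5 and 23.8 FPKM in wild boar 1, 2 and 3. Again both libraries numbered 1 were the lowest, and Rongchang 1 lay below wild boar 2 and 3. The mean was 30.2 ± 8.57 FPKM in Rongchang and 23.3 ± 4.55 FPKM in wild boar (SD, n = 3 each).

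GABRA4 (ENSSSCG00000030515) encodes alpha4, which often joins the delta subunit in receptors outside the synapse and does not bind classical benzodiazepines. It was the steadiest of the 5, with a highest library 1.48 times the lowest, at 18.1, 19.7 and 20.5 FPKM in Rongchang 1, 2 and 3, against 13.8, 17.6 and 18.5 FPKM in wild boar 1, 2 and 3. Wild boar 1 was the lowest of the 6, and wild boar 3 lay above Rongchang 1. The mean was 19.4 ± 1.21 FPKM in Rongchang and 16.6 ± 2.49 FPKM in wild boar (SD, n = 3 each).

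GABRG1 (ENSSSCG00000008809) encodes gamma1, a subunit of narrow distribution that is also found in some glia of rodents. Its level was 17.5, 16.2 and 13.7 FPKM in Rongchang 1, 2 and 3, against 15.6, 10.2 and 11.04 FPKM in wild boar 1, 2 and 3. Here the libraries numbered 1 were the highest of their breed, the opposite of GABRA3 and GABRA5. Wild boar 1 lay above Rongchang 3, so the breeds overlapped, with means of 15.8 ± 1.92 FPKM in Rongchang and 12.3 ± 2.91 FPKM in wild boar (SD, n = 3 each).

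GABRA2 (ENSSSCG00000028922) encodes alpha2, which is concentrated at synapses on the axon initial segment in rodents and mediates much of the calming effect of benzodiazepines in mice. It was lowest on average, at 13.1, 16.6 and 6.92 FPKM in Rongchang 1, 2 and 3, against 10.4, 11.8 and 10.2 FPKM in wild boar 1, 2 and 3. The highest and the lowest library were both Rongchang, a range of 2.40 times, and the 3 wild boars lay between them. The mean was 12.2 ± 4.91 FPKM in Rongchang and 10.8 ± 0.887 FPKM in wild boar (SD, n = 3 each).

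**Figure D1:**
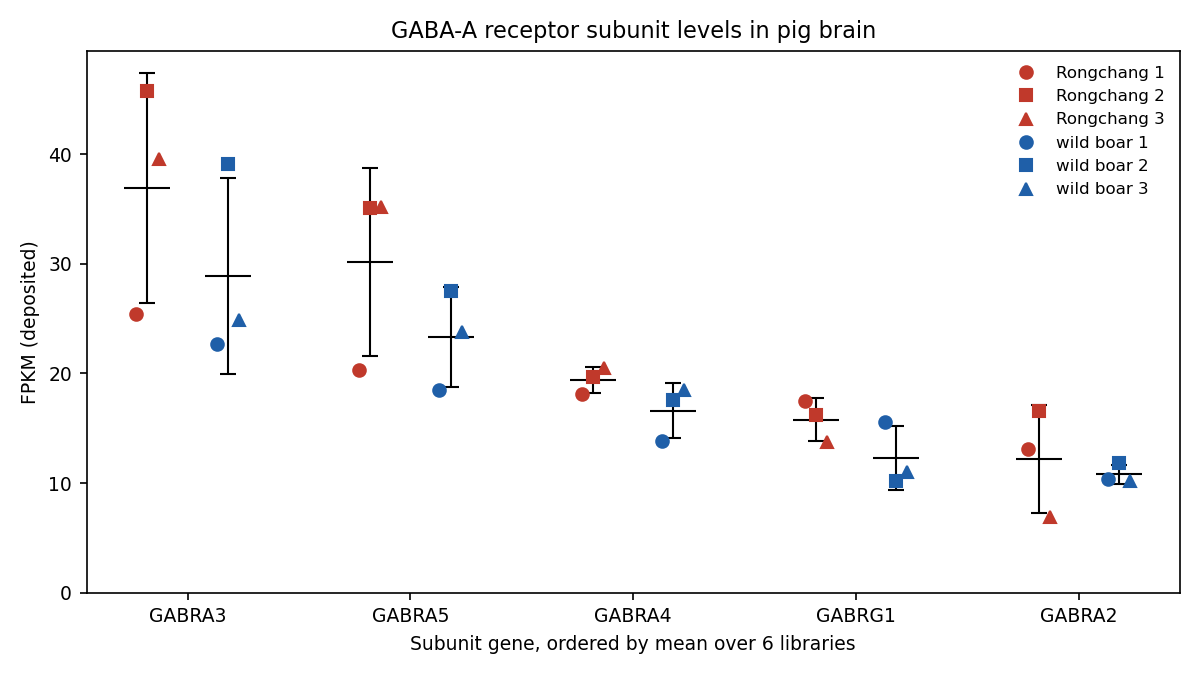
Deposited FPKM (y axis, linear from 0) of the 5 subunit genes, with 3 Rongchang libraries left of 3 wild boar libraries for each gene, symbols giving the animal number and black bars the mean and SD. GABRA3 and GABRA5 sit highest, and the breeds overlap for every gene.

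In the annotation of pig assembly Sscrofa11.1, used here for gene order only, GABRG1 and GABRA2 lie next to each other, with GABRA4 1 gene further on and GABRB1 beside it. GABRG1, GABRA2 and GABRA4, the 3 genes measured from this group of neighbours, were also the 3 lowest of the 5 by mean FPKM. A link between position and level was not tested.

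The order of the subunit messages was the same at its top in every library. GABRA3 held rank 1 in 6 of 6 libraries and GABRA5 rank 2 in 6 of 6. GABRA4 held rank 3 in 5 libraries and rank 4 in wild boar 1, where GABRG1 took rank 3. The lower places were less fixed: GABRG1 held rank 4 in 3 libraries and rank 5 in both libraries numbered 2, and GABRA2 held rank 5 in 4 libraries and rank 4 in 2. By mean FPKM both breeds gave GABRA3, GABRA5, GABRA4, GABRG1 and GABRA2, from high to low.

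Neighbours in that order were compared within libraries by an exact two-sided sign-flip permutation test, whose smallest p with 6 libraries is 0.0312. The order came from the means of the same 6 libraries, so the pairs were not chosen independently of the values tested. GABRA3 exceeded GABRA5 by 1.22 times on geometric average (range 1.04 to 1.42, p = 0.0312, adjusted over 4 pairs 0.0624, exact permutation test). GABRA5 exceeded GABRA4 by 1.45 times (range 1.12 to 1.78, with the same exact permutation p and adjusted p). Neither can pass 0.05 after adjustment unless a further pair also reaches the smallest p, although each held in 6 of 6 libraries. GABRA4 exceeded GABRG1 in 5 of 6 libraries (1.30 times, adjusted p = 0.125, exact permutation test), and GABRG1 exceeded GABRA2 in 4 of 6 (1.24 times, adjusted p = 0.188, exact permutation test). No pair of neighbours passed 0.05 after adjustment, and the order of the lower 3 genes changed between libraries.

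As shares of the summed FPKM of the 5 genes, GABRA3 made up 31.8% ± 4.24 in Rongchang and 31.0% ± 5.06 in wild boar (SD, n = 3 each), and GABRA5 26.0% ± 4.44 in Rongchang and 25.2% ± 2.13 in wild boar. GABRA4 held 17.2% ± 2.24 in Rongchang and 18.2% ± 2.40 in wild boar, and GABRG1 14.2% ± 3.80 in Rongchang and 13.8% ± 4.97 in wild boar. GABRA2 held 10.8% ± 4.21 in Rongchang and 11.8% ± 0.878 in wild boar. The breed difference of every share was smaller than the SD of at least 1 breed, with exact two-sided permutation p from 0.7 to 1.0 and adjusted p of 1.0 over the 5 shares, where 3 against 3 animals cannot go below 0.1. Single libraries did depart: GABRA2 made up 5.97% of the sum in Rongchang 3, against 11.1% to 13.9% in the other 5 libraries.

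**Figure D2:**
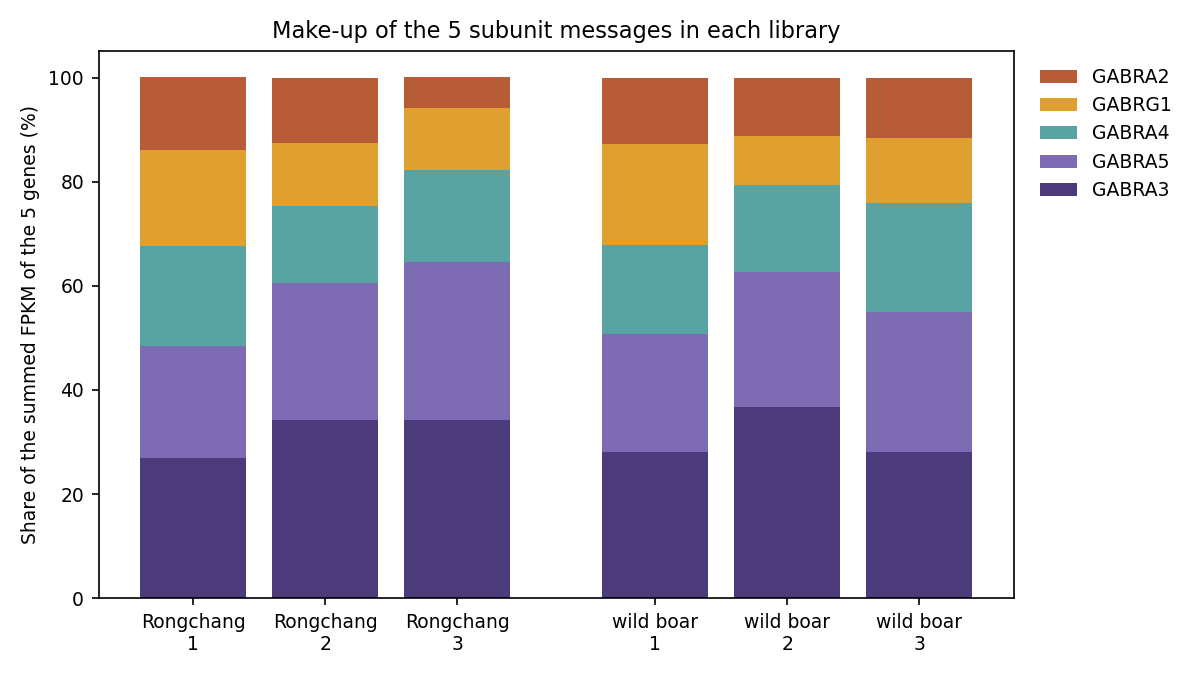
Share of the summed FPKM of the 5 genes (y axis, percent) taken by each gene in each library, Rongchang 1 to 3 on the left and wild boar 1 to 3 on the right. GABRA3 and GABRA5 together take the most in each of the 6 libraries, and the GABRG1 segment is widest in the libraries numbered 1 of both breeds, at 18.6% in Rongchang 1 and 19.3% in wild boar 1.

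Ratios between genes within a library do not depend on how libraries were scaled. Of the 10 ratios among the 5 genes, 8 were above 1 in all 6 libraries, and 0 separated the breeds. Exact two-sided permutation p ran from 0.5 to 1.0, with an adjusted p of 1.0 for each ratio. Of the levels of all genes tested, 12.5% did not overlap between the breeds.

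The 3 ratios with the smallest p were GABRG1/GABRA2, GABRA3/GABRA2 and GABRA3/GABRA4. GABRG1/GABRA2 was 1.34, 0.974 and 1.99 in Rongchang 1, 2 and 3, against 1.51, 0.862 and 1.08 in wild boar 1, 2 and 3 (log2 difference 0.29, exact permutation p = 0.5). It was under 1 in both libraries numbered 2. GABRA3/GABRA2 was 1.94, 2.75 and 5.73 in Rongchang 1, 2 and 3, against 2.19, 3.31 and 2.44 in wild boar 1, 2 and 3 (log2 difference 0.26, exact permutation p = 0.7). Rongchang 3 stood apart there, and without it the difference was −0.17. GABRA3/GABRA4 was 1.40, 2.33 and 1.93 in Rongchang, against 1.64, 2.23 and 1.34 in wild boar (log2 difference 0.12, exact permutation p = 0.7).

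The 3 ratios closest between the breeds were GABRA3/GABRA5, GABRA3/GABRG1 and GABRA5/GABRG1, with log2 differences of 0.00, −0.03 and −0.04. GABRA3/GABRA5 kept the narrowest range of the 10, from 1.04 to 1.42. GABRA3/GABRG1 was 1.45, 2.83 and 2.88 in Rongchang 1, 2 and 3, against 1.46, 3.84 and 2.25 in wild boar 1, 2 and 3. GABRA5/GABRG1 was 1.16, 2.16 and 2.56 in Rongchang, against 1.18, 2.70 and 2.15 in wild boar. Both ratios were lowest in the animals numbered 1 of either breed.

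**Figure D3:**
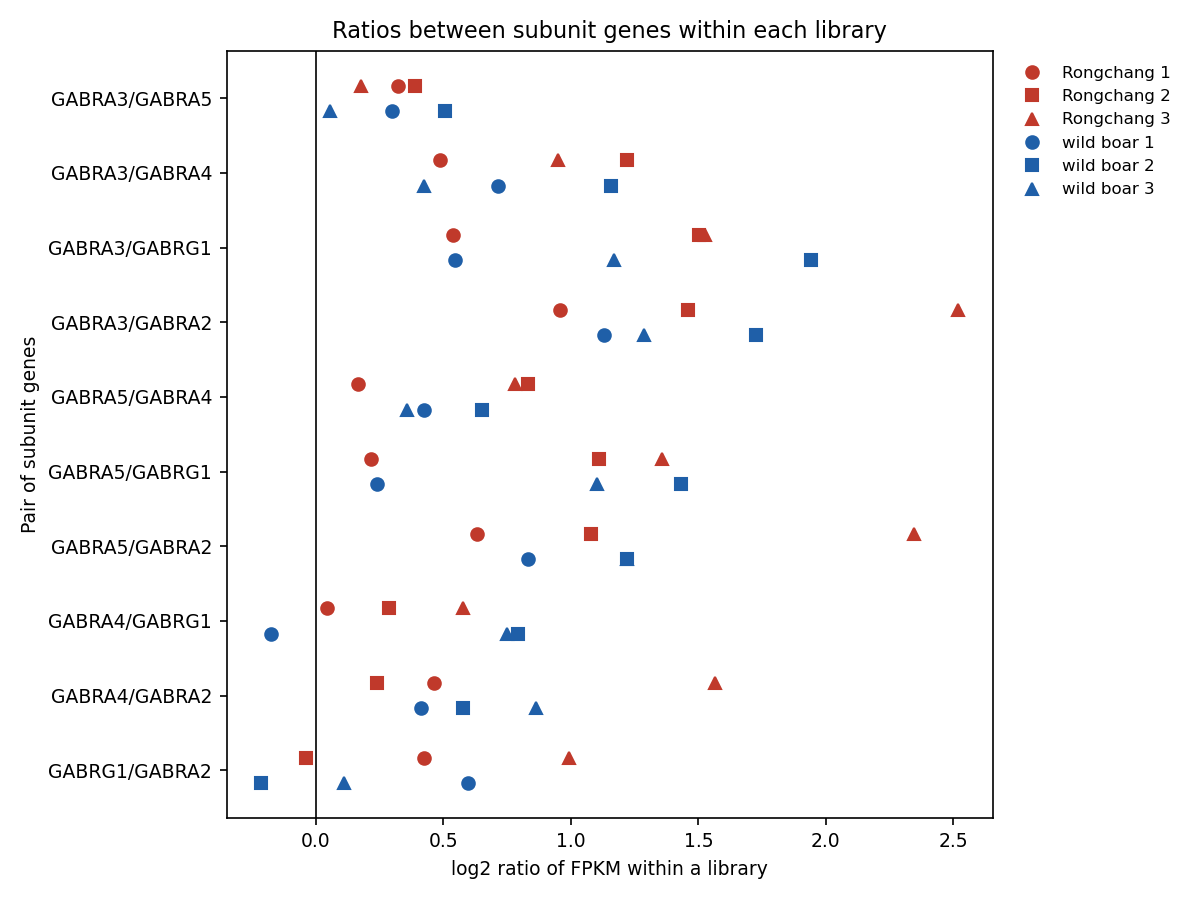
log2 ratio of FPKM within a library (x axis) for the 10 pairs of subunit genes (y axis), Rongchang libraries in red above wild boar libraries in blue, symbols giving the animal number. Circles, the animals numbered 1, lie at 1.45 and 1.46 on the linear scale for GABRA3/GABRG1 in the 2 breeds, while squares and triangles lie to their right.

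Ratios varied more with the number in the label than with breed. For all 10 ratios the range over the 3 numbers, each averaged over its Rongchang and its wild boar, was larger than the breed difference: 0.33 to 1.18 log2 units over numbers, against 0.00 to 0.29 between breeds. For GABRA3/GABRG1 the average was 1.45 for animals numbered 1, 3.30 for those numbered 2 and 2.55 for those numbered 3. The labels do not say what a number marks. A range over 3 averages and a difference between 2 are not the same measure, and no test was made of it.

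Marker sums also moved with the number. The pan-neuronal sum was lowest in both libraries numbered 1, as were GABRA3 and GABRA5. The astrocyte sum (8 of 10 markers with a row, none at 0) was 3610, 3040 and 3590 FPKM in Rongchang 1, 2 and 3, against 3650, 2600 and 3720 FPKM in wild boar 1, 2 and 3. It was lowest in the libraries numbered 2, and CLU made up 44.8% of it. CLU, GFAP, ALDOC and GJA1 were each lowest in the libraries numbered 2 of both breeds, while SLC1A2, SLC1A3, ALDH1L1 and FGFR3 were not. SLC1A2 was lowest in both libraries numbered 3, at 129 FPKM in Rongchang 3 and 105 FPKM in wild boar 3. The part of these marker sums in the ratios was not tested. Set against the pan-neuronal sum, a scaling chosen after the values were seen, the 5 genes together came to 3.54% ± 0.400 in Rongchang and 3.10% ± 0.268 in wild boar (SD, n = 3 each; exact permutation p = 0.3). On that scale GABRA3 was 0.973%, 1.34% and 1.06% in Rongchang 1, 2 and 3, against 0.930%, 1.17% and 0.787% in wild boar 1, 2 and 3. It was highest in the library numbered 2 of each breed, and lowest in Rongchang 1 and in wild boar 3.

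**Figure D4:**
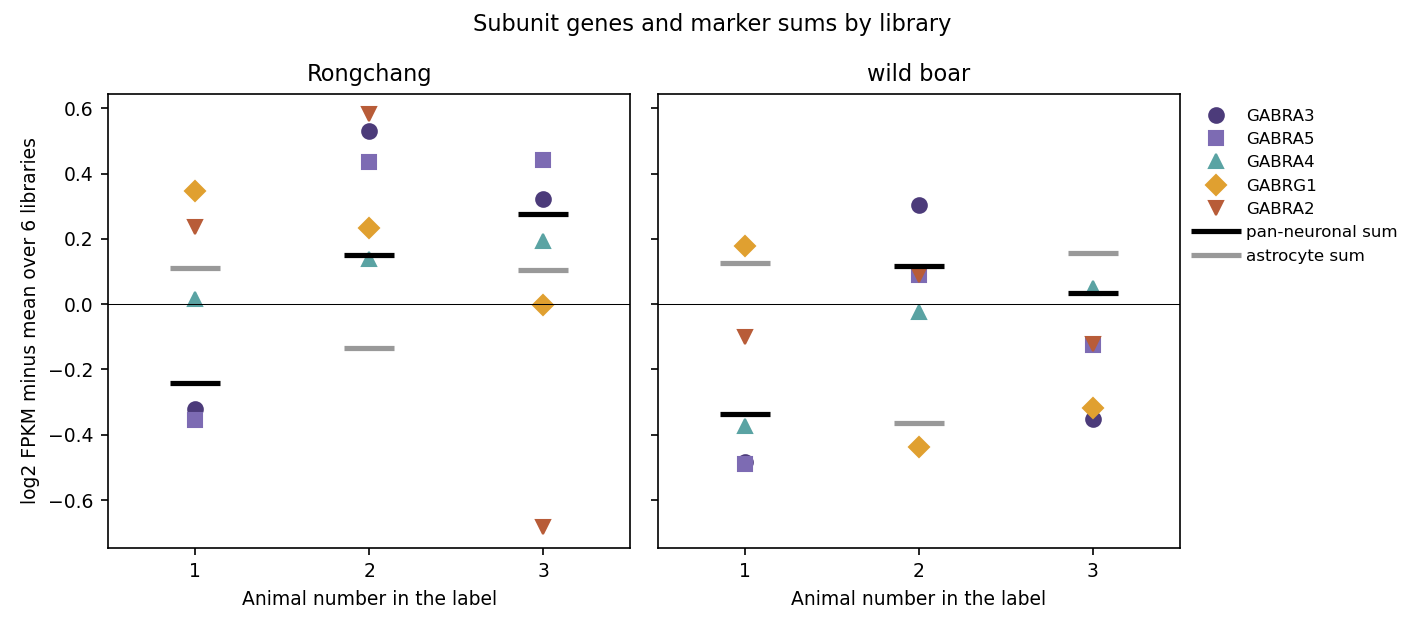
log2 FPKM minus its mean over the 6 libraries (y axis) by the animal number in the label (x axis), for Rongchang on the left and wild boar on the right, with coloured symbols for the 5 genes and horizontal marks for the pan-neuronal and astrocyte marker sums. GABRA3 and GABRA5 lie low with the pan-neuronal sum at number 1, and GABRA2 in Rongchang 3 lies at −0.68, the lowest point.

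Between the breeds, none of the 5 genes passed. All 5 had a mean fold change above 0, as did 77.9% of all genes tested, and 4 lay above the median gene. The log2 fold change, Rongchang minus wild boar on the log2(FPKM + 1) scale, was 0.36 ± 0.192 (SE) for GABRG1, 0.34 ± 0.277 for GABRA3, 0.34 ± 0.251 for GABRA5, 0.22 ± 0.162 for GABRA4 and 0.09 ± 0.278 for GABRA2. With 1 library left out these values moved. GABRA3 ran from 0.17 without Rongchang 2 and 0.20 without wild boar 1 to 0.575 without wild boar 2 and 0.584 without Rongchang 1. GABRA5 had 0.19 without wild boar 1, 0.21 without Rongchang 2 or Rongchang 3, and 0.59 without Rongchang 1. GABRA4 ran from 0.099 without wild boar 1 to 0.30 without wild boar 3, and GABRG1 from 0.25 without wild boar 2 to 0.53 without wild boar 1. GABRA2 ran from −0.16 without Rongchang 2 to 0.42 without Rongchang 3. Adjusted p in limma ran from 0.792 for GABRG1 to 0.950 for GABRA2. Of 13152 genes tested, 1 was higher in Rongchang (0.0076%) and 0 lower. Without Rongchang 1 those counts were 0 and 1, without Rongchang 3 they were 0 and 0, and without wild boar 1 they were 4 and 0. At an unadjusted p under 0.05, 0 of the 5 genes stood apart, and 713 of all genes tested were higher in Rongchang (5.42%) and 76 lower (0.578%). At that mark GABRA5 alone of the 5 was higher in Rongchang without Rongchang 1, against 4.68% of all genes tested. Likewise GABRA2 was without Rongchang 3, against 3.83%, and GABRG1 without wild boar 1, against 4.44%.

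The median gene was itself higher in Rongchang by 0.13 log2 units. Relative to it the median of the 5 genes, 0.34, came to 0.21, and GABRA2 to −0.04. That relative median was smaller in each fit with 1 library left out, from 0.073 without wild boar 1 and 0.077 without Rongchang 2 to 0.17 without Rongchang 3, with 0.13 without Rongchang 1 and 0.105 without wild boar 2. It was 0.093 with array weights. With libraries brought to a common median FPKM, GABRA2 had a fold change of −0.07 and the other 4 genes of 0.06 to 0.20. The median of all genes was then −0.01, 46.4% of genes lay above 0, and 246 genes were higher (1.87%) and 248 lower (1.89%) at an unadjusted p under 0.05. The sign for GABRA2 therefore depends on scaling.

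Rongchang exceeded the wild boar of the same number in 14 of 15 comparisons, 3 of 3 for GABRA3, GABRA4, GABRA5 and GABRG1 and 2 of 3 for GABRA2. These 15 comparisons reuse the same animals, so they are not independent, and the labels do not pair the animals. Of all genes tested, 38.5% were higher in Rongchang in 3 of 3 pairs. With the number as a block in limma, GABRA5, GABRG1 and GABRA3 had unadjusted p of 0.0231, 0.0261 and 0.0327, a count of 3 genes against 0 without the block. At that mark 2104 of all genes were then higher (16.0%) and 185 lower (1.41%), and adjusted p of the 3 genes was 0.250 to 0.265. With the block and median scaling together, 0 of the 5 genes had an unadjusted p under 0.05, against 5.02% of all genes higher and 5.47% lower.

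The levels of 0 of the 5 genes separated the breeds with all libraries, against the 12.5% of all genes noted above, and this count rested on single animals. Without Rongchang 1, which was low in GABRA3 and GABRA5, 3 genes separated the breeds (GABRA3, GABRA4 and GABRA5), against 22.8% of all genes tested. Without Rongchang 2, 0 did, against 23.5%, and without Rongchang 3, 2 did (GABRA2 and GABRG1), against 19.6%. Leaving out a wild boar gave 1 gene each time: GABRG1 without wild boar 1, against 19.8% of all genes, GABRA3 without wild boar 2, against 32.0%, and GABRA4 without wild boar 3, against 18.7%. Without both libraries numbered 2 it was GABRA3, against 43.6%. None of these passed in limma. The summed FPKM of the 5 genes was 115 ± 19.5 in Rongchang and 91.8 ± 13.0 in wild boar (SD, n = 3 each; log2 difference 0.31, exact permutation p = 0.2). That difference ran from 0.20 without Rongchang 2 to 0.45 without Rongchang 1.

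**Figure D5:**
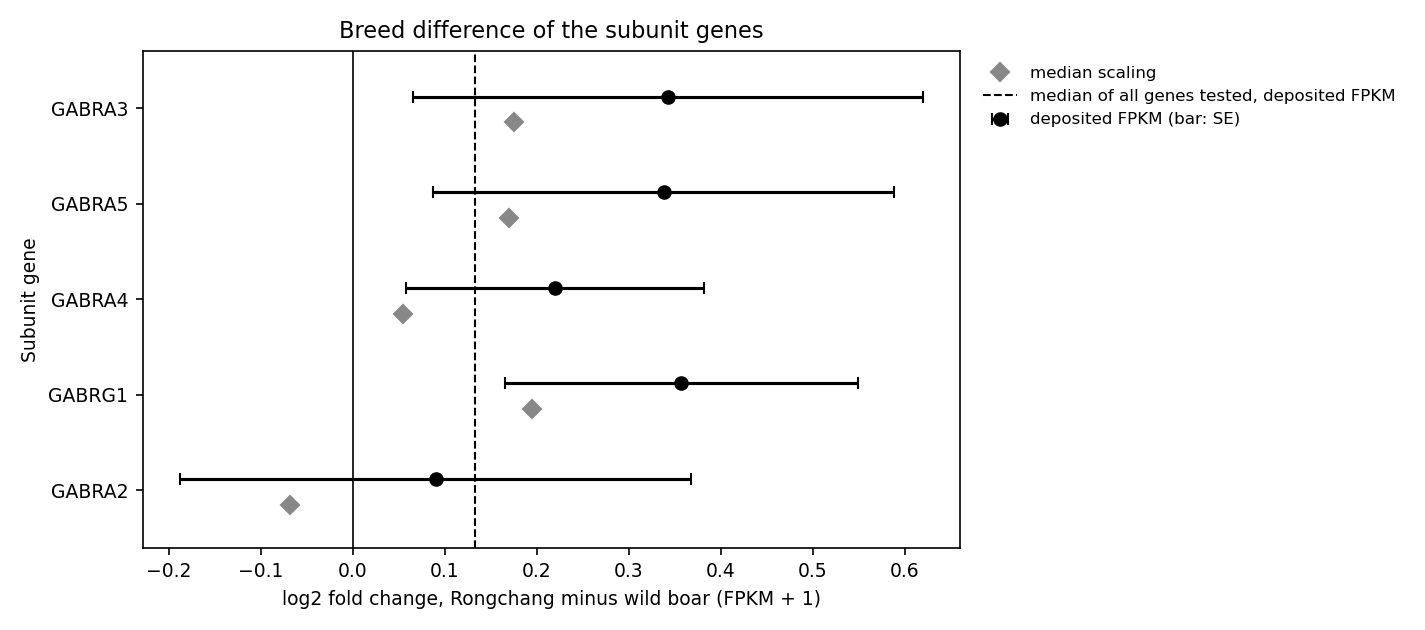
log2 fold change, Rongchang minus wild boar (x axis), of the 5 genes (y axis), with black points and SE bars for deposited FPKM and grey diamonds for libraries brought to a common median. The dashed line is the median of all genes tested, 0.13, and GABRA2 lies at 0.09 on deposited values and at −0.07 with scaling.

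GABRA6, GABRE and GABRR1, further subunit genes with a row, stayed under 1 FPKM in every library and were not tested.

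The rest of the GABA pathway showed no gene past the threshold. The 8 genes of GABA synthesis, transport and breakdown that were tested (of 9 listed) had 0 higher and 0 lower, with 7 fold changes above 0 and a median of 0.17. ALDH5A1, which oxidises the aldehyde left after GABA is broken down, had the smallest p of that list (29.7 ± 8.10 FPKM in Rongchang and 21.6 ± 2.68 FPKM in wild boar, a log2 fold change of 0.42 with an adjusted p in limma of 0.789). The GABA transporter SLC6A13 stood at 4.43 ± 0.815 FPKM in Rongchang and 3.68 ± 0.472 FPKM in wild boar (0.21). The metabotropic receptor genes GABBR1 (188 ± 26.3 FPKM in Rongchang and 183 ± 43.3 FPKM in wild boar, 0.05) and GABBR2 (63.6 ± 10.0 FPKM in Rongchang and 62.6 ± 18.6 FPKM in wild boar, 0.05) were more abundant than any of the 5 ionotropic subunit genes.

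Among genes of the inhibitory postsynapse and of receptor assembly and trafficking, 12 of 18 were tested, with 0 higher, 0 lower and a median fold change of 0.03. GABARAPL1, a relative of the GABA-A receptor-associated protein, was the most abundant at 264 ± 51.2 FPKM in Rongchang and 266 ± 18.6 FPKM in wild boar (log2 fold change −0.02). TMEM35A, an assembly chaperone of nicotinic receptors, was at 44.0 ± 11.2 FPKM in Rongchang and 36.2 ± 5.29 FPKM in wild boar (0.26), and LHFPL4, which holds GABA-A receptors at synapses in rodents, at 13.0 ± 2.16 FPKM in Rongchang and 10.9 ± 3.66 FPKM in wild boar (0.26). The chloride exporter SLC12A5, which keeps neuronal chloride low so that GABA inhibits, stood at 64.2 ± 12.8 FPKM in Rongchang and 59.0 ± 25.5 FPKM in wild boar (0.18), and the importer SLC12A2 at 7.73 ± 2.49 FPKM in Rongchang and 8.62 ± 1.90 FPKM in wild boar (−0.17).

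Interneuron markers, of which 12 of 16 were tested, had 0 higher and 0 lower and a median of 0.07. The neuropeptide gene TAC1 had the smallest p, at 7.29, 5.34 and 5.97 FPKM in Rongchang 1, 2 and 3, against 1.77, 2.10 and 4.57 FPKM in wild boar 1, 2 and 3, a log2 fold change of 0.98 (adjusted p in limma 0.766). CCK, the most abundant, was at 473 ± 166 FPKM in Rongchang and 479 ± 115 FPKM in wild boar (−0.05), and CALB2 at 9.49 ± 4.68 FPKM in Rongchang and 5.84 ± 1.03 FPKM in wild boar (0.54).

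The excitatory counterpart, AMPA and NMDA receptor subunits, had 7 of 10 genes tested, 0 higher, 0 lower and a median fold change of 0.30, against 0.34 for the 5 GABA-A genes. GRIA2, which makes AMPA receptors impermeable to calcium, was the most abundant at 60.6 ± 20.6 FPKM in Rongchang and 49.0 ± 17.5 FPKM in wild boar (log2 fold change 0.30). GRIN3A stood at 3.31 ± 0.474 FPKM in Rongchang and 2.10 ± 0.185 FPKM in wild boar (0.47, adjusted p in limma 0.789), and GRIA4 at 9.02 ± 0.909 FPKM in Rongchang and 7.51 ± 1.38 FPKM in wild boar (0.24). The summed level of these subunits was highest in both libraries numbered 2, at 199 FPKM in Rongchang 2 and 164 FPKM in wild boar 2, as GABRA3 was.

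The mean profile of the 5 genes over the 6 libraries was highest in Rongchang 2 (0.36 log2 units above its own mean) and lowest in wild boar 1 (−0.24). Among 8531 other genes with a symbol, the nearest by root mean square difference of centred log2(FPKM + 1) were ZNF287 (0.0202), LTN1 (0.0322), ZMYND11 (0.0418) and FAM171B (0.0422), with 1 further gene not used here, against a median of 0.225 over those genes. ZMYND11 was at 44.6 ± 5.40 FPKM in Rongchang and 37.4 ± 4.39 FPKM in wild boar, and FAM171B at 32.7 ± 5.13 FPKM in Rongchang and 27.3 ± 3.94 FPKM in wild boar. ZNF287 was near the detection filter at 1.58 ± 0.393 FPKM in Rongchang and 1.17 ± 0.214 FPKM in wild boar, where the added 1 damps differences. Among the 5 genes themselves the distance to their mean profile was 0.147 for GABRA4 and 0.309 for GABRA2, so that the mean profile follows no single subunit closely.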

How the data were processed

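The authors deposited 1 FPKM value per gene and library; the unit was judged from the values and from TopHat2 2.0.11, Cufflinks 2.2.1 and Cuffdiff, named without roles in the submitters' processing notes. Genome build, annotation and strand setting of quantification were not given in the sources used here. The libraries mark strand with dUTP, per the labels' protocols. Depth could not be recovered: of the ratios of values under 0.15 FPKM, at most 23.7% fell in 1 window of 0.04 log2 units for any pair of libraries.

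Symbols were found for 10937 of 18225 identifiers (60.0%), and the row with the highest mean was kept per symbol. Breeds were compared with limma 3.58.1 (R 4.3.3) with a mean-variance trend on log2(FPKM + 1), Rongchang minus wild boar, after a filter that kept genes reaching 1 FPKM in 3 or more of the 6 libraries. The tests were two-sided, with Benjamini-Hochberg adjustment over 13152 genes and a threshold of 0.05. Fold changes on this scale understate changes of low genes. Orders, ratios and shares used exact permutation tests (scipy 1.17.1). The plan foresaw 21 ratios and 7 shares; the 5 genes with a row gave 10 and 5. The labels number the animals and say no more of their origin, so p-values reflect only how these 6 libraries vary.

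The numbers 1 to 3 recur in both breeds. After subtracting each breed's mean, the pairs that share a number correlated at 0.283, 0.587 and 0.368, each over the bound of 0.1 for treating numbers as pairs. This pairing comes from the values and not from the labels; Rongchang 1 with wild boar 3 also reached 0.125. The primary comparison has no block.

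In 20 simulated tables of 13152 genes, of which 200 were changed, the Rongchang minus wild boar fit found 49.8% of the 2-fold and 88.6% of the 4-fold changes and made 7.65 false calls a table. The simulation varied each gene independently, while libraries of the same number varied together in the data. In the data only 1 gene passed, which makes the adjusted threshold stricter than with 200 changed genes. These recovery rates therefore do not measure what the fit could find in the data. The genes and lists were chosen with earlier results of these data known. Named from each list were the most abundant gene and the 2 with the smallest p. Some genes this rule names are not reported here. Alternatives tried were the pseudocount, the filter, scaling, trend, library weights, the block, each library left out, both libraries numbered 2 left out, and summed rows per symbol.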

Additional observations from a re-analysis of the deposited data

How the results depend on the processing

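GABRA3, GABRA4, GABRA5 and GABRG1 had fold changes above 0 under all 19 alternatives, and 0 of the 5 genes passed under any. GABRA2 was above 0 in 14 of 19. It reversed to −0.068 with median scaling, −0.046 with quantile normalization, −0.068 with the replicate block and median scaling and −0.10 without both libraries numbered 2, and ran from −0.16 to 0.42 with 1 library left out. Genes with an unadjusted p under 0.05 numbered 3 of 5 with the replicate block and 0 to 1 with 1 library left out. The block changed no other call, and left the summed FPKM at 0.31 (exact permutation p = 0.25, the smallest 3 pairs allow). Genes separating the breeds numbered 0 to 3 with 1 library left out, against 18.7% to 32.0% of all genes, and 1 without both libraries numbered 2, against 43.6%. Over all genes, those higher in Rongchang numbered 3 with a pseudocount of 0.1, 0 with a minimum mean of 5 FPKM, 0 without both libraries numbered 2 and 0 to 4 with 1 library left out, and those lower 0 to 1. The cause was not tested.

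With 1 library left out, ratios separating the breeds numbered 0 to 1, and 9 of the 10 breed differences changed sign in at least 1 case: GABRA3/GABRA5 from −0.11 to 0.11, GABRA3/GABRA4 from −0.049 to 0.32, GABRA3/GABRG1 from −0.37 to 0.33, GABRA3/GABRA2 from −0.17 to 0.61, GABRA5/GABRA4 from −0.002 to 0.33, GABRA5/GABRG1 from −0.38 to 0.31, GABRA5/GABRA2 from −0.24 to 0.62, GABRA4/GABRG1 from −0.47 to 0.016 and GABRA4/GABRA2 from −0.26 to 0.40. GABRG1/GABRA2 stayed between 0.03 and 0.54. Share differences ran from −0.674 to 3.72 points for GABRA3, −1.32 to 3.11 for GABRA5, −1.98 to 0.389 for GABRA4, −1.78 to 3.15 for GABRG1 and −2.60 to 1.35 for GABRA2. The order by mean kept all 5 positions in each setting tried.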

Other observations

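The choroid plexus transcript TTR stood at 0.264, 3.01 and 0.96 FPKM in Rongchang 1, 2 and 3, against 1.34, 0.12 and 34.2 FPKM in wild boar 1, 2 and 3. The other choroid plexus markers with a row, KCNJ13 and CLIC6, stayed under 1 FPKM in every library. In wild boar 1, 2 and 3, KCNJ13 stood at 0.756, 0.873 and 0.597 FPKM and CLIC6 at 0.0201, 0.325 and 0.0453 FPKM. Neither was highest in wild boar 3.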
